A study of Mus musculus with 18 samples.

Results

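Interferon-stimulated genes are the set of genes that cells switch on when they sense an interferon. The 45 genes described here were chosen by name, as a set of well known mouse members of this response, and all 45 were found among the 55487 genes of the count files. Expression was measured by RNA-sequencing of whole-thickness ileum from 18 mice, with 1 library per mouse and 6 mice per genotype. The mice were C57BL6/J littermates of both sexes, 8–13 weeks old and fed chow. Every mouse carried CAG-*Ppara*,-*EGFP*, a transgene at the *Col1a1* locus that makes PPARα, a lipid-sensing transcription factor, and EGFP only after Cre has turned its cassette around. Mice called IEC-*Ppara* had it together with *Villin-CreERT2*, a Cre active in the intestinal epithelium, and were heterozygous or homozygous for it. Control mice had the transgene and no Cre. All 3 genotypes, controls included, were given tamoxifen (100 mg/kg daily for 3 days), and tissue was taken 2 weeks after the last dose. There were 3 female and 3 male controls, 2 females and 4 males among the heterozygous mice, and 2 females and 4 males among the homozygous mice. The transgene is switched in epithelial cells only, whereas the libraries hold every layer of the gut wall. In such tissue, fewer cells of a type and less RNA per cell cannot be told apart.

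Type I interferons (α and β) and type III interferons (λ) signal through a complex that includes STAT2 and IRF9 and binds a DNA element called the ISRE. Type II interferon (γ), made by T cells and NK cells, acts mainly through a different element, the GAS. In the small intestine, epithelial cells respond to interferon λ and interferon γ, and many stimulated genes encode proteins that block viruses or attack vacuoles holding intracellular microbes.

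These elements could be read in the promoters of many of the genes. RefSeq promoter sequences of GRCm38.p6, running from 250 bases before to 50 bases after a gene's start, matched 34 of the 45 genes (40 promoters). The ISRE was searched as GAAA, any 2 bases and GAAA again, or its complement with TTTC on the other strand, and was found for 22 of the 34 genes (64.7%), against 3.99% of all genes with a promoter. The GAS was searched as TTCNNNGAA, which reads the same on both strands, and was found for 10 of the 34 (29.4%), against 9.55% of all genes. Both were found for 7 genes and neither for 9. The sites below belong to genes that the results turn on. Capitals mark the searched element within its flanks of 10 bases, and a match is a description of the sequence, not of binding. 4 immunity-related GTPase genes on chromosome 11 are shown first because they hold the element in nearly the same surroundings.
*Igtp*, GAS, chr11:58199501-58199529, plus strand: aactagccatTTCTAGGAActgaaactga
*Irgm2*, GAS, chr11:58214892-58214920, plus strand: aactagccatTTCCAGGAActgaaactga
*Tgtp1*, GAS, chr11:48992316-48992344, minus strand: aactagccatTTCCAGGAAtcgaaactga
*Tgtp2*, GAS, chr11:49064275-49064303, minus strand: agctagccatTTCCAGGAAtcgaaaccga
*Irgm2*, ISRE, chr11:58214903-58214932, plus strand: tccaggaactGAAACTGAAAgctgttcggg
*Irf1*, GAS, chr11:53769914-53769942, plus strand: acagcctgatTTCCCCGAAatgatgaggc
*Irf8*, GAS, chr8:120736177-120736205, plus strand: caaaagtgatTTCTCGGAAagagagcgct
*Gbp2*, ISRE, chr3:142620594-142620623, plus strand: actcttttagTTTCACTTTCactgtcttaa
*Socs1*, ISRE, chr16:10785594-10785623, minus strand: gccggaaagaGAAACCGAAAgcgggggtgg
In *Igtp*, *Irgm2*, *Tgtp1* and *Tgtp2* an ISRE follows the GAS within the same promoter. *Irf1* and *Irf8* had the GAS without an ISRE, and *Gbp2* and *Socs1* the ISRE without a GAS. The promoters of *Cxcl9* and *Cd274* held neither string in this window.

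The libraries held between 38528522 and 50376371 counts on genes, so a count of 0 allows up to 0.0779 CPM (a gene's counts scaled to the same total in every library), which is 3 counts in the smallest library. Counts across genotypes were compared with edgeR's quasi-likelihood test over 12645 protein-coding genes above 3 CPM in at least 4 libraries, with Benjamini-Hochberg adjustment over these genes. As a check of the labels, *Ppara* had 25.8 to 47.4 CPM in controls, 107 to 196 in heterozygous and 184 to 279 in homozygous mice. Epithelial and ileal enterocyte markers were present in every library. Some libraries stood apart in other tissue: summed CPM of 12 B cell markers was 703, 561 and 399 in control 2, control 3 and heterozygous 2 against 24.1 to 121 in the others, and summed smooth muscle markers ran from 487 in control 6 to 8587 in homozygous 3.

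All 45 genes were expressed in the ileum of every mouse, with at least 59 counts for any gene in any library. On the per-length scale (FPKM, CPM per kilobase of transcript), the highest median levels were those of *Irf7* (41.4), *Irf1* (30.5) and *Oasl1* (20.9), a pair of transcription factors and an OAS-like protein. The lowest were *Ifi44* (0.562), *Gbp6* (0.611) and *Mx2* (0.768). *Mx1* and *Mx2*, antiviral GTPases of the dynamin family, are annotated as polymorphic pseudogenes and were therefore outside the fit over protein-coding genes. *Mx1* ran from 4.66 to 12.2 CPM and *Mx2* from 1.61 to 3.96 CPM, with overlapping ranges in the 3 genotypes. In a fit over all gene types, the log2 fold changes of *Mx1* were −0.20 in heterozygous and −0.21 in homozygous mice against control, with standard errors (SE) of 0.23 in both, and those of *Mx2* were −0.17 (SE 0.21) and −0.13 (SE 0.21). The other 43 genes were tested.

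No interferon-stimulated gene passed an adjusted p of 0.05 in edgeR in any of the 3 comparisons, and none did in DESeq2 or limma-voom. Among all 12645 genes, the share that passed was 0.411% in homozygous mice and 0.293% in heterozygous mice against control, and 0.00791% between the transgenic genotypes. At an unadjusted p under 0.05, 15 of the 43 genes were lower and 0 higher in heterozygous than in control mice, where 2.53% of all genes were lower and 2.76% higher. In homozygous against control mice the counts were 3 lower and 0 higher (4.03% of all genes in each direction), and in homozygous against heterozygous mice 0 in either direction (3.89% of all genes were higher and 3.72% lower). DESeq2 gave 17 and limma-voom 10 lower genes for heterozygous against control (334 and 297 of all 12645 genes). For homozygous against control they gave 3 and 2 (518 and 430 of all genes). DESeq2 gave 1 and limma-voom 0 higher genes for homozygous against heterozygous mice (618 and 548 of all genes). For no tested gene did the CPM of 2 genotypes lie fully apart, which was so for 0.791%, 0.443% and 0.285% of all genes in the 3 comparisons.

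The direction was nearly uniform in heterozygous mice. Of 43 genes, 42 had a fitted fold change below 0 against control, with a median of −0.30 on the log2 scale, while the median over all genes was −0.0058 and 52.5% of them were below 0. In homozygous mice 31 of 43 were below 0 with a median of −0.12 (all genes −0.0048, 51.9% below 0). Between the transgenic genotypes, 38 of 43 were higher in homozygous mice, with a median of 0.19, where 50.1% of all genes were lower. The 3 comparisons share their libraries, and the genes of the set vary together. Within genotypes, the median Pearson correlation over all pairs of the 43 genes was 0.48 across 18 libraries, against −0.008 over all genes. Without control 6 it was 0.39, against −0.009 over all genes. All genes of a library share its depth and tissue makeup, which differ between libraries.

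**Figure D1:**
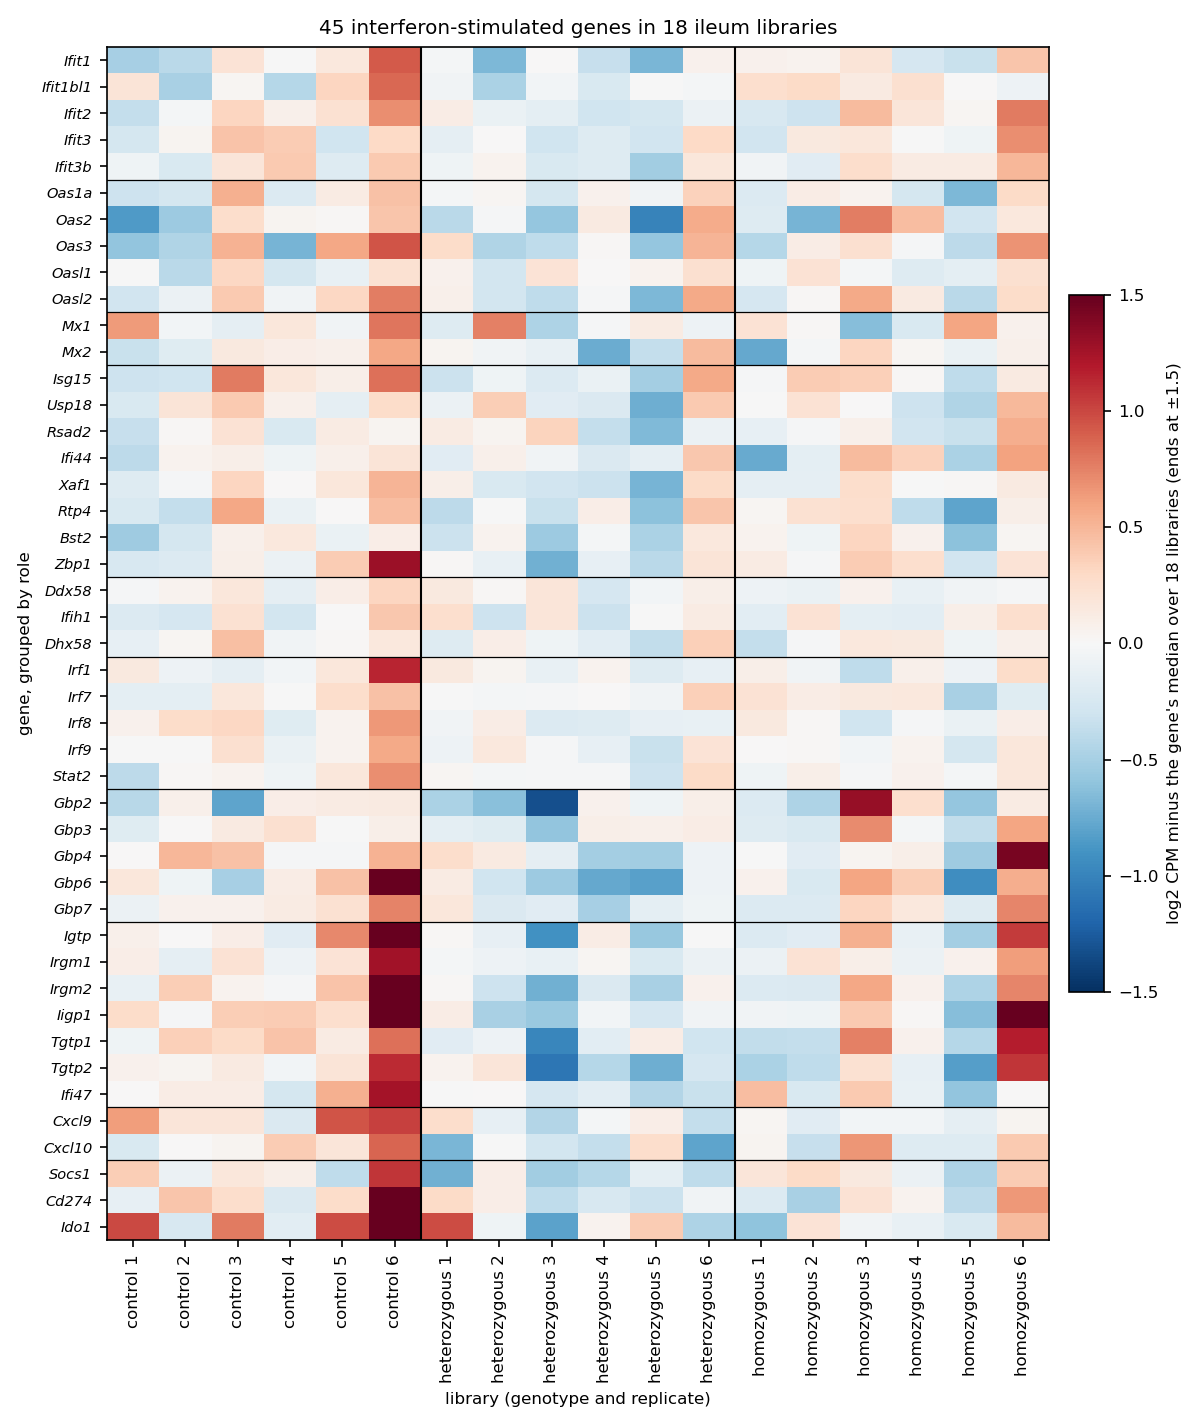
Level of each of the 45 genes (vertical, grouped by role) in each of the 18 libraries (horizontal), as log2 of normalised CPM plus 0.1 minus the gene's median over libraries. Red is above and blue below that median, and the colour scale ends at ±1.5. Control 6 is the most uniformly red column, and homozygous 6 is red for the GTPase genes in particular.

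1 control mouse stood out. Control 6 was above the median of the 18 libraries for 43 of 43 tested genes and had the highest level of all libraries for 26 of them (60.5%), where it was the highest for 9.43% of all genes. Its median deviation over the 43 genes was 0.70 on the log2 scale. Homozygous 6 came next by median deviation (0.37) and by the number of genes at their highest (9, or 20.9%, against 3.83% of all genes), with 39 genes above the median. Control 3 had 40 genes above the median, a median deviation of 0.22 and 4 genes at their highest (9.30%, against 3.78% of all genes). At the other end, the lowest level of all libraries fell in heterozygous 5 for 11 genes, in heterozygous 3 for 10 and in homozygous 5 for 8 (25.6%, 23.3% and 18.6%), where these libraries were the lowest for 9.31%, 7.69% and 4.85% of all genes. Their median deviations were −0.32, −0.27 and −0.34.

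Leaving out control 6 changed the comparisons with control. Without it, 2 of the 43 genes (*Cxcl9* and *Socs1*) were lower at an unadjusted p under 0.05 in heterozygous mice in place of 15, where 2.39% of all genes were lower. The median fold change moved from −0.30 to −0.16, and 36 genes were below 0 (49.8% of all genes). In homozygous mice the median turned from −0.12 to 0.05, and 17 of the 43 genes were below 0 (46.3% of all genes). *Cxcl9* alone was lower there at an unadjusted p under 0.05, as were 3.46% of all genes. Other libraries counted as well: without heterozygous 3 the count for heterozygous against control was 7, and without heterozygous 4 it was 9, while the count over all 12645 genes went from 320 lower to 209 and 260. Without homozygous 6 the count for homozygous against control was 8, and without control 4 it was 5, while the count over all genes went from 510 lower to 501 and 605. Between homozygous and heterozygous mice, where the count was 0 with all libraries, 5 genes were higher at an unadjusted p under 0.05 without homozygous 5 and 4 without control 6. Over all genes, 492 were higher with all libraries, 478 without homozygous 5 and 684 without control 6. Over all 18 such omissions no gene passed the adjusted threshold.

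**Figure D2:**
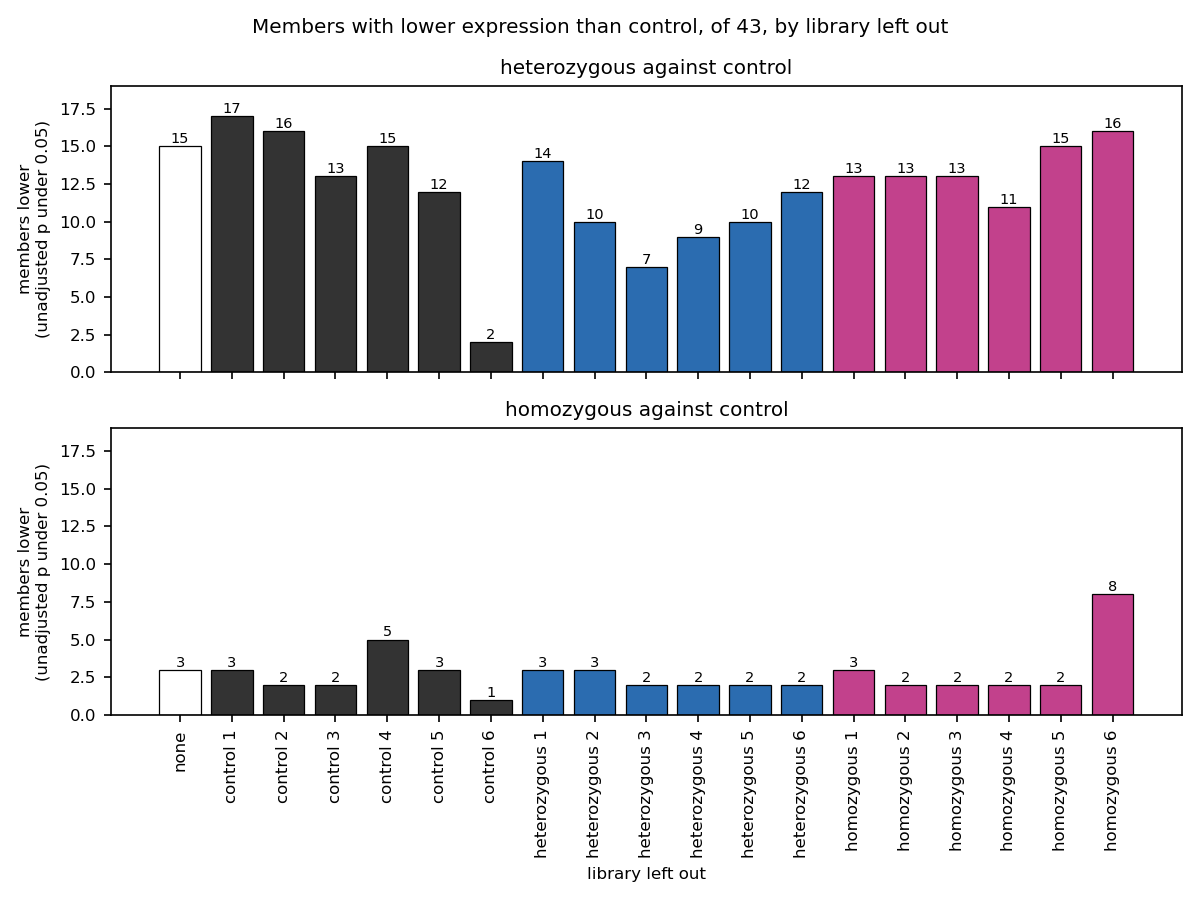
Number of the 43 tested genes that were lower than in control mice at an unadjusted p under 0.05 (vertical) with no library or 1 library left out (horizontal), for heterozygous (top) and homozygous (bottom) mice. The heterozygous count is 15 with all libraries and 2 without control 6, and the homozygous count ranges from 1 to 8.

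Control 6 had the lowest smooth muscle sum of all 18 libraries (487 CPM, against 612 to 8587 in the others). Its T cell sum (109 CPM) ranked 2 and its epithelial sum ranked 5 of 18, both within the range of the other controls. Its B cell sum of 27.6 CPM ranked 16 of 18, its macrophage and dendritic cell sum of 345 CPM ranked 15 and its fibroblast sum of 1714 CPM ranked 17. The part of these values in the level of the interferon-stimulated genes was not tested. Homozygous 6 was the lowest of all 18 for ileal enterocyte markers (6816 CPM), ranked 17 for T cells (45.9 CPM) and ranked 10 for macrophages and dendritic cells and for smooth muscle. Homozygous 3, which was the highest library for *Gbp2*, *Gbp3*, *Oas2* and *Bst2* (9.30% of the tested genes, against 17.6% of all genes), had the highest sums of all 18 for macrophages and dendritic cells (729 CPM), neutrophils (43.6 CPM), fibroblasts and smooth muscle, and the lowest for epithelium (13138 CPM). The 3 libraries that most often held the lowest level of the set stood apart as well. Heterozygous 5 was the lowest of all 18 for T cells (41.8 CPM), fibroblasts (1386 CPM) and endothelium (175 CPM) and the highest for epithelium. Heterozygous 3 was the lowest for macrophages and dendritic cells (327 CPM) and ranked 17 for smooth muscle (612 CPM). Homozygous 5 ranked 16 for T cells (47.6 CPM), 17 for NK cells (2.13 CPM) and 17 for ileal enterocytes (7172 CPM). The part of these values was not tested either.

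The IFIT proteins bind viral RNA that lacks the marks of host mRNA. *Ifit1* was listed at 15.1 to 38.1 CPM (median 23.3) in controls, 12.2 to 22.3 (18.7) in heterozygous and 16.8 to 28.1 (22.1) in homozygous mice, so the ranges overlapped. All 5 *Ifit* genes had fold changes below 0 in heterozygous mice (−0.39 to −0.21), none with an unadjusted p under 0.05, where 52.5% of all genes were below 0. In homozygous mice they lay between −0.10 and 0.05. Leaving out control 6 moved the heterozygous median from −0.29 to −0.16, with all 5 still below 0, and put all 5 above 0 in homozygous mice (median 0.13). *Ifit2* had 6.36 to 12.5 CPM (median 9.48) in controls, 6.21 to 8.67 (7.53) in heterozygous and 6.34 to 13.8 (8.89) in homozygous mice. Homozygous against heterozygous it differed by 0.33 on the log2 scale (SE 0.18, edgeR adjusted p = 0.645), and by 0.18 without homozygous 6, its highest library. *Ifit3* and *Ifit3b* share part of their sequence (18.5% and 16.0% of their 150-base windows, respectively), so their separate levels are uncertain.

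The OAS family, whose enzymes make the messenger that activates RNase L, had fold changes on both sides of 0. In heterozygous mice the 5 fold changes lay between −0.28 and 0.08, and *Oasl1*, with 43.5 to 65.9 CPM in controls and 46.3 to 64.1 in heterozygous mice, was the only one of the 43 tested genes above 0. In homozygous mice the range was −0.18 to 0.17. The family medians turned when control 6 was left out, from −0.08 to 0.02 in heterozygous and from −0.11 to 0.09 in homozygous mice. *Oas1a* shares 32.4% of its windows with *Oas1g*. *Oas3* was 2.36-fold higher in control 6 than the median of the other controls.

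The ISG15 system attaches a ubiquitin-like tag to proteins and removes it again (*Isg15*, *Usp18*), and the genes grouped with it encode further antiviral effectors such as viperin (*Rsad2*), tetherin (*Bst2*) and the nucleic acid sensor *Zbp1*. All 8 had fold changes below 0 in heterozygous mice (−0.48 to −0.0039), as did 52.5% of all genes. *Xaf1* alone had an unadjusted p under 0.05, where 2.53% of all genes were lower at that p. The median of the 8, −0.17, became −0.10 without control 6. Then 7 were below 0 (49.8% of all genes) and none had an unadjusted p under 0.05. The homozygous median went from −0.11 to 0.0031. *Zbp1* had 15.3 to 41.6 CPM (median 18.4) in controls, 10.9 to 20.7 (17.0) in heterozygous and 14.7 to 24.7 (20.3) in homozygous mice. Its highest value, in control 6, was 2.31 times the median of the other controls. *Isg15* ranged from 6.45 to 13.5 CPM in controls and from 5.14 to 11.9 and 6.08 to 10.8 CPM in heterozygous and homozygous mice.

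The RIG-I-like receptors sense viral RNA in the cytoplasm. *Ddx58*, which encodes RIG-I, had 59.6 to 72.0 CPM (median 67.4) in controls, 52.1 to 69.5 (64.8) in heterozygous and 55.5 to 66.9 (59.1) in homozygous mice. The homozygous level was lower by 0.14 on the log2 scale (SE 0.08, edgeR adjusted p = 0.665), and by 0.08 without control 6. *Ifih1* (MDA5) and *Dhx58* (LGP2) had fold changes between −0.13 and 0.02 in the comparisons with control. *Ifih1* ran from 75.4 to 108 CPM in controls, 69.6 to 101 in heterozygous and 78.8 to 102 in homozygous mice.

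Among the transcription factors, *Stat2* and *Irf9* form the complex that binds the ISRE, *Irf7* amplifies type I interferon production, and *Irf1* and *Irf8* act downstream of interferon γ, *Irf8* also being needed for dendritic cell development. *Irf8* had 114 to 180 CPM (median 138) in controls, 103 to 136 (110) in heterozygous and 103 to 137 (121) in homozygous mice. In CPM, 4 of 6 heterozygous and 2 of 6 homozygous mice lay below every control, and the rest lay within the control range. The lowest control, control 4, and homozygous 5 were nearly level, at 113.6 and 113.5 CPM. On the scale of the fit, which also divides by a TMM factor (1.06 for control 4), fewer mice lay below every control. The log2 fold changes were −0.31 (SE 0.11, edgeR adjusted p = 0.690) in heterozygous and −0.24 (SE 0.11, edgeR adjusted p = 0.615) in homozygous mice, and −0.20 and −0.12 without control 6. *Irf1* was at 242 CPM in control 6, where the other controls had 104 to 134, heterozygous mice 93.2 to 126 and homozygous mice 93.7 to 139. 796 of its 3976 exonic bases lie under a gene on the opposite strand. If strand was not counted, reads there match 2 genes and are left out of the counts, so its level is uncertain. *Stat2* and *Irf9* had fold changes from −0.16 to −0.08 in the comparisons with control, and *Irf7* −0.06 and −0.10. Over the 5 factors the medians were −0.16 in heterozygous and −0.15 in homozygous mice, and −0.04 and −0.02 without control 6.

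The guanylate-binding proteins are large GTPases, induced above all by interferon γ, that coat bacteria and parasite vacuoles. All 5 genes had fold changes below 0 in heterozygous mice (median −0.36), *Gbp6* and *Gbp7* with an unadjusted p under 0.05, where 52.5% of all genes were below 0 and 2.53% were lower at that p. The median in homozygous mice was 0.03. When control 6 was left out, all 5 were still below 0 in heterozygous mice with a median of −0.22 and none under 0.05, while in homozygous mice 0 of 5 were below 0 and the median was 0.10. *Gbp2* had 21.7 to 43.7 CPM (median 41.5) in controls, 15.4 to 41.1 (30.5) in heterozygous and 25.7 to 99.6 (37.6) in homozygous mice. The highest value was that of homozygous 3, 2.95-fold over the median of the other homozygous mice. The difference between homozygous and heterozygous mice was 0.53 on the log2 scale (SE 0.30, edgeR adjusted p = 0.645), and 0.17 without homozygous 3. *Gbp4* was highest in another mouse: homozygous 6 had 34.3 CPM against 8.89 to 14.0 in the other homozygous mice. *Gbp6* shares 59.1% of its windows with *Gbp10* and another locus, so its level is uncertain.

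The immunity-related GTPases, small GTPases that act with the guanylate-binding proteins on the same vacuoles, held the lowest fold change of the set in heterozygous mice, that of *Igtp* at −0.95. 6 of the 7 genes lie on chromosome 11. All 7 had fold changes below 0 in heterozygous mice, with a median of −0.64, and 6 had an unadjusted p under 0.05, where 52.5% of all genes were below 0 and 2.53% were lower at that p. All 7 were below 0 in homozygous mice too (median −0.26, none under 0.05), as were 51.9% of all genes. Without control 6 the medians were −0.39 and 0.02, and none had an unadjusted p under 0.05 in either comparison. Summed over the 7 genes, control 6 had 282 CPM against 108 to 139 in the other controls, heterozygous mice had 73.8 to 103, and homozygous 6 had 188 against 82.2 to 141 in the other homozygous mice. *Igtp* was raised most in control 6, at 52.9 CPM, 3.92-fold over the median of the other controls. *Irgm2* had 22.2 to 71.2 CPM (median 29.0) in controls, 14.6 to 25.3 (20.5) in heterozygous and 17.4 to 39.4 (23.5) in homozygous mice. Its fold change in heterozygous mice was −0.79 (SE 0.28, edgeR adjusted p = 0.679), or −0.40 without control 6. *Ifi47* had 13.6 to 34.6 CPM (median 16.9) in controls, 10.4 to 15.9 (13.3) in heterozygous and 10.2 to 21.5 (14.8) in homozygous mice, with a fold change of −0.57 (SE 0.22, edgeR adjusted p = 0.736) in heterozygous mice and −0.31 without control 6.

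Between homozygous and heterozygous mice, the same family showed the highest fold change of the set. *Iigp1*, on chromosome 18, had 12.7 to 35.9 CPM (median 15.1) in controls, 8.22 to 12.8 (10.6) in heterozygous and 7.78 to 41.4 (12.2) in homozygous mice. The difference was 0.67 on the log2 scale (SE 0.35, edgeR adjusted p = 0.642), and it was 0.16 without homozygous 6, which was 3.47-fold over the median of the other homozygous mice. *Tgtp1* had 2.43 to 4.33 CPM (median 3.27) in controls, 1.24 to 2.54 (2.26) in heterozygous and 1.87 to 5.81 (2.36) in homozygous mice. It differed by 0.52 (SE 0.28, edgeR adjusted p = 0.644), or 0.24 without homozygous 6. *Tgtp1* shares 64.9% of its windows with *Tgtp2* and another locus, and *Tgtp2* shares 68.4% of its windows with *Tgtp1*. The counts hold only reads with a single alignment, so reads from shared windows may be left out, and the levels of *Tgtp1* and *Tgtp2* may be understated. *Igtp* and *Irgm2* overlap in part of their exons.

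**Figure D3:**
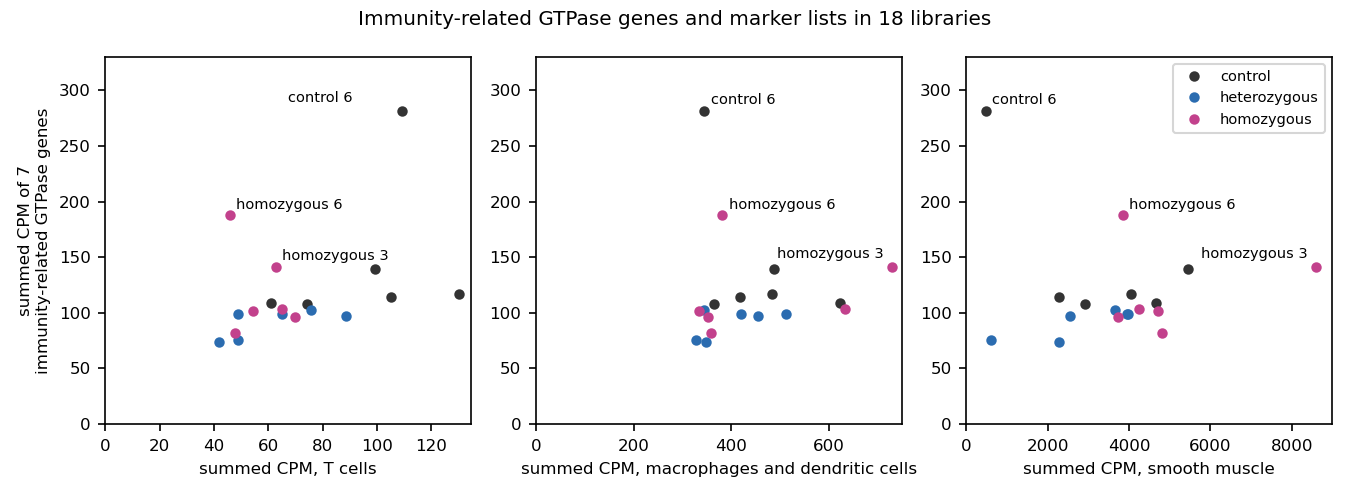
Summed CPM of the 7 immunity-related GTPase genes (vertical) against summed CPM of markers of T cells, of macrophages and dendritic cells and of smooth muscle (horizontal), 1 point per library, coloured by genotype. Control 6, at 282 CPM, has many T cell transcripts and the fewest smooth muscle transcripts, while homozygous 6, at 188 CPM, is low for T cells.

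*Cxcl9* and *Cxcl10* encode chemokines, induced by interferons, that draw activated T cells through the receptor CXCR3. *Cxcl9* was the gene with the lowest p-value of the set in both comparisons with control. It had 6.26 to 13.7 CPM (median 9.46) in controls, 5.04 to 8.08 (6.65) in heterozygous and 5.90 to 7.14 (6.91) in homozygous mice. In CPM, 4 of 6 controls lay above every transgenic mouse, and the remaining controls lay among them. Of those above, control 2 had 8.24 CPM against 8.08 in heterozygous 1, and on the scale of the fit it lay below that mouse (TMM factors 1.05 and 0.978). The log2 fold changes were −0.61 (SE 0.18, edgeR adjusted p = 0.355) in heterozygous and −0.58 (SE 0.18, edgeR adjusted p = 0.308) in homozygous mice. Without control 6 they were −0.48 and −0.45, and over the 18 omissions they lay between −0.72 and −0.48 and between −0.70 and −0.45, so no single library carried the direction. The lowest adjusted p in any edgeR, DESeq2 or limma-voom fit was 0.0873, for homozygous mice without control 4. *Cxcl10* had 2.74 to 5.62 CPM in controls, 1.82 to 3.56 in heterozygous and 2.43 to 5.37 in homozygous mice. Its unadjusted p in heterozygous mice was under 0.05 with all libraries and not without control 6, and the fold change in homozygous mice turned from −0.15 to 0.02. Under a gene on the opposite strand lie 5.91% of its exonic bases.

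The last group holds 3 genes that restrain signalling or T cells. All 3 were lower at an unadjusted p under 0.05 in heterozygous than in control mice (median −0.61), as were 2.53% of all genes. Without control 6 *Socs1* alone was (median −0.38), where 2.39% of all genes were lower. *Ido1*, the interferon γ-induced enzyme that breaks down tryptophan, had 12.3 to 42.2 CPM (median 25.3) in controls, 7.80 to 26.6 (14.0) in heterozygous and 9.17 to 18.9 (13.5) in homozygous mice. 4 of 6 controls lay above every homozygous mouse. The log2 fold change in homozygous mice was −0.85 (SE 0.32, edgeR adjusted p = 0.492) and ranged from −0.99 to −0.58 over the omissions, the latter without control 6. *Socs1*, which blocks JAK kinases and is itself induced by interferon, had 5.09 to 12.9 CPM (median 7.23) in controls, 3.82 to 7.20 (4.89) in heterozygous and 4.69 to 8.31 (7.49) in homozygous mice. Its fold change was −0.61 (SE 0.21, edgeR adjusted p = 0.653) in heterozygous against control mice (−0.38 without control 6) and 0.43 (SE 0.21, edgeR adjusted p = 0.642) in homozygous against heterozygous mice, while the homozygous difference from control was −0.19 (SE 0.21, edgeR adjusted p = 0.869), or 0.05 without control 6. *Cd274*, the inhibitory ligand PD-L1, had 5.81 to 17.4 CPM (median 7.71) in controls, 4.69 to 7.66 (5.79) in heterozygous and 4.38 to 9.90 (6.18) in homozygous mice. Its fold change in homozygous mice, −0.46 (SE 0.26, edgeR adjusted p = 0.687), was −0.11 without control 6. 511 of its 3622 exonic bases (14.1%) lie under a gene on the opposite strand, so its level has the same uncertainty as that of *Irf1*.

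**Figure D4:**
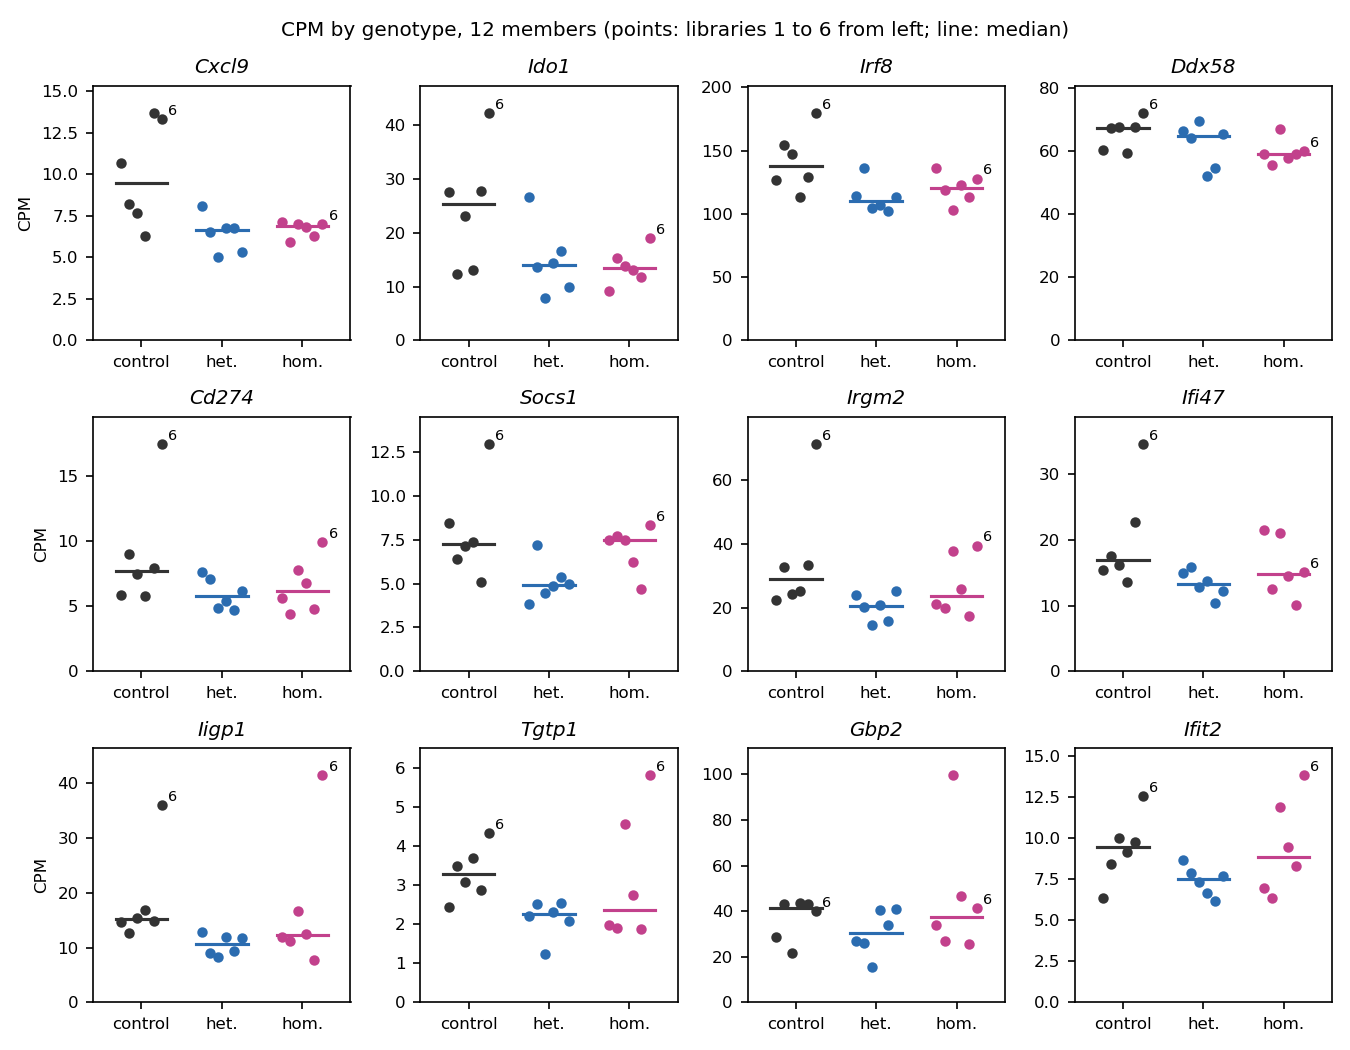
CPM of the 12 genes with the 5 lowest p-values in any comparison (1 panel each, vertical axes from 0), with 1 point per library, libraries 1 to 6 from left to right within a genotype, and the median as a line. The numeral marks control 6 and homozygous 6. Control 6 is far above the other controls for *Irgm2*, *Iigp1* and *Cd274*, and the controls of *Cxcl9* and *Ido1* spread more evenly.

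T cells and NK cells are sources of interferon γ. Summed CPM of 12 T cell markers was 61.1 to 130 (median 102) in controls, 41.8 to 88.5 (56.9) in heterozygous and 45.9 to 69.8 (58.6) in homozygous mice. Of the 8 markers tested, homozygous mice had 7 and heterozygous mice 5 that were lower at an unadjusted p under 0.05, none with an adjusted p under 0.05. The shares of all genes that were lower were 4.03% and 2.53%. Without control 6 the marker counts were 7 and 4, against 3.46% and 2.39% of all genes. NK cell markers, all 7 of them too low to be tested, summed to 3.63 to 6.61 CPM in controls, 2.09 to 3.31 in heterozygous and 2.13 to 3.50 in homozygous mice. Every control thus lay above every transgenic mouse, by a small margin, and 3 of the 7 markers were at 0 in some library. These markers were *Ncr1*, *Klrb1c*, *Eomes*, *Klra4*, *Klra8*, *Klrd1* and *Prf1*. Their relative *Klrb1*, outside the list, went the other way: the paper lists it as higher in both transgenic genotypes than in control. The sum is therefore not a measure of NK cell number. Of all single genes, 0.443% lay fully apart between heterozygous and control mice and 0.791% between homozygous and control mice. Plasmacytoid dendritic cell markers summed to 90.8 to 153 CPM, with overlapping genotypes. Of the 4 tested, 3 had a fold change below 0 in homozygous and 3 in heterozygous mice against control. *Ccr9* and *Ly6d* were lower in homozygous than in control mice at an unadjusted p under 0.05 (2 of 4 also without control 6), and 0 were lower at that p in heterozygous mice. All 12 B cell markers were tested, and 11 were lower in homozygous mice at that p (median −2.79, or 12 of 12 without control 6) against 0 in heterozygous mice (median −1.37). Control 2 and control 3 stood far above the other controls in these markers, at 703 and 561 CPM. The median sums lay close together, at 36.5 CPM in controls, 33.3 in heterozygous and 33.6 in homozygous mice. None of the B cell or plasmacytoid dendritic cell markers had an adjusted p under 0.05. The part of T cells, NK cells, B cells and plasmacytoid dendritic cells in the lower *Cxcl9* and *Ido1* values was not tested. Without control 2, control 3, heterozygous 2 and homozygous 1, the libraries highest in B cell genes, the counts of interferon-stimulated genes at an unadjusted p under 0.05 were 14 lower for the heterozygous and 4 lower for the homozygous comparison with control, where 281 and 371 of all 12645 genes were lower.

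**Figure D5:**
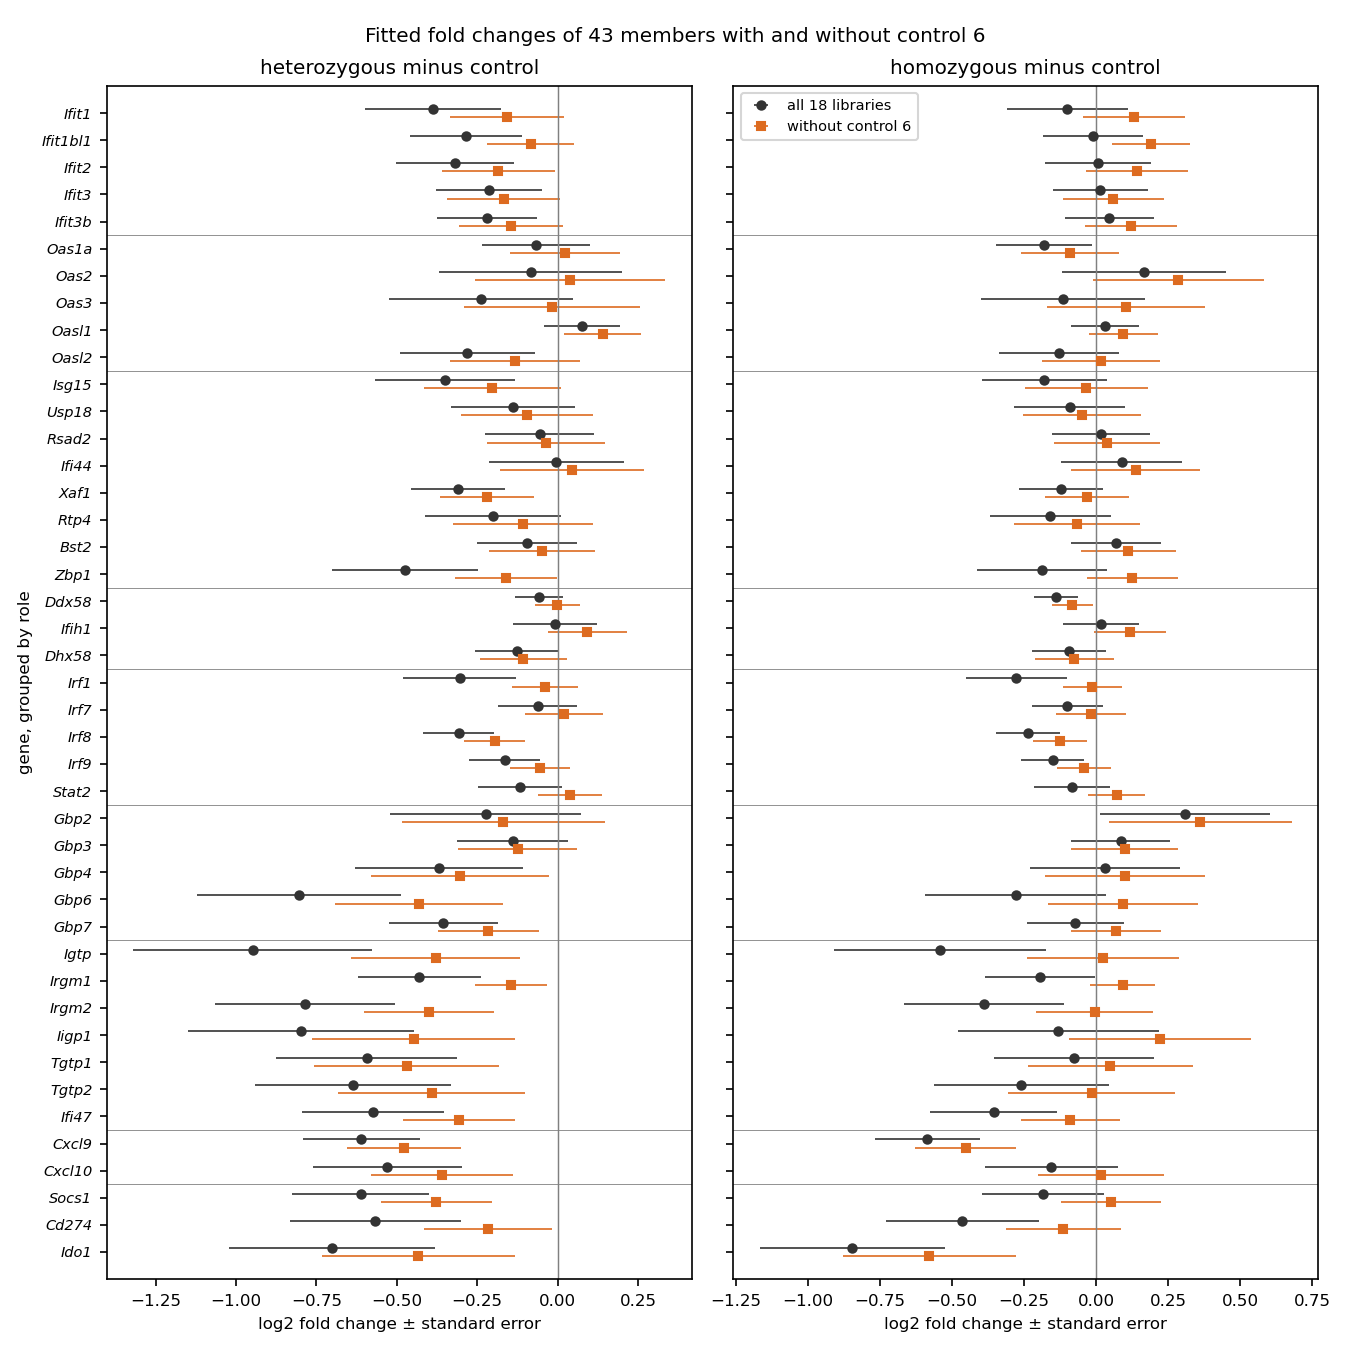
Log2 fold change with its standard error (horizontal) of the 43 tested genes (vertical, grouped by role) for heterozygous (left) and homozygous (right) mice against control, with all 18 libraries (circles) and without control 6 (squares). The heterozygous median is −0.30 with and −0.16 without control 6, and the homozygous median −0.12 and 0.05.

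The interferons themselves were barely detected. *Ifnb1*, *Ifna1*, *Ifna2*, *Ifna4*, *Ifna5* and *Ifnl3* had 0 counts in every library, *Ifnl2* had 4 counts over all libraries and *Ifng* had 16, of which 6 were in control 6. *Il18*, a cytokine that drives interferon γ production, was highest in control 6 at 25.2 CPM, where the other controls and the transgenic mice lay lower. Of the 12 genes of the ligand list, 11 were at 0 in some library and 1 passed the filter. In control 6 their sum was nearly all *Il18*, which is not an interferon, so the sum does not rank the libraries by interferon. Summed over the list, control 6 had 25.6 CPM and heterozygous 1 came next at 19.3. Homozygous 6, the next highest library for the interferon-stimulated genes, had 8.46 and ranked 15 of 18. All 6 receptor genes were expressed and none passed the adjusted threshold. *Ifngr1* had 187 to 251 CPM and *Ifngr2* 212 to 311 CPM, *Ifnar1* 58.8 to 78.5 and *Ifnar2* 10.9 to 30.3, and *Ifnlr1* 21.9 to 34.3 and *Il10rb* 54.7 to 68.9. At an unadjusted p under 0.05, 2 of the 6 were higher in heterozygous than in control mice (2.76% of all genes) and 3 lower in homozygous than in heterozygous mice (3.72%). *Il10rb*, the shared subunit of the interferon λ receptor, had the lowest p in both, with differences of 0.15 (SE 0.05, edgeR adjusted p = 0.551) and −0.16 (SE 0.05, edgeR adjusted p = 0.536).

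Of 39 further interferon-stimulated genes outside the 45, 38 were tested and none passed an adjusted p of 0.05. At an unadjusted p under 0.05, 5 were lower in heterozygous and 7 in homozygous mice against control, with 0 higher in both, where 2.53% and 4.03% of all genes were lower. Without control 6, 3 and 4 were lower, against 2.39% and 3.46% of all genes. *Ifi27l2b* was the gene of these lists with the lowest p-value: it had 184 to 248 CPM in controls, 186 to 237 in heterozygous and 126 to 201 in homozygous mice, and differed between the transgenic genotypes by −0.43 (SE 0.11, edgeR adjusted p = 0.475).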

How the data were processed

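Whole-thickness ileum of 18 mice was sequenced as poly-A RNA, with 1 library per mouse, and the groups are the genotypes in the labels. Reads were mapped by the authors with STAR to GRCm38 (Ensembl primary assembly), and featureCounts gave the deposited counts, which are raw and cover reads with a single alignment and a single gene. The strand setting of the counting is not given in the sources used here, and the library protocol as described does not mark strand. The CPM deposited by the authors divides these counts by the library total, and the FPKM deposited by the authors also divides by gene length. The deposited moderated log2 CPM table was not used. Gene positions and types are those of the count files.

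The 45 genes, their roles, the marker lists and the tests were chosen with earlier results of these data known. A filter of over 3 CPM in 4 or more libraries left 13709 genes, and the 12645 protein-coding ones were fitted with edgeR 4.0.16 (TMM, glmQLFit and glmQLFTest, 1 coefficient per genotype, all 18 libraries) in R 4.3.3. P-values are two-sided and adjusted by Benjamini-Hochberg over all genes of a comparison, at 0.05. They measure the spread between mice of these litters. Full values were given for any gene with an adjusted p under 0.05, of which there were 0, and for the 5 genes with the lowest p in each comparison. They were also given for *Socs1* in homozygous against control mice and for *Il10rb* and *Ifi27l2b*. The alternatives were DESeq2 1.42.0, limma-voom (limma 3.58.1), scaling by DESeq2 size factors, scaling by library size alone, no filter, all gene types, only the 12 libraries compared, a term for sex, a replicate block, omission of the 4 libraries high in B cell genes, and omission of each library in turn.

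On simulated counts of these 12645 genes, with 100 genes changed 2-fold and 100 changed 4-fold, the fit found 83 and 95 for homozygous against control, 87 and 98 for heterozygous against control, and 87 and 98 for homozygous against heterozygous mice. The changed genes had a mean above 100 counts, and all counts were drawn independently, with no outlying library or shared tissue makeup. All fitted fold changes of the set were below 2-fold, so the simulation does not tell how many changes of their size would be found. Shared sequence was measured as 150-base windows of GENCODE M21 transcripts that occur in another gene. Promoters of 34 of the 45 genes were matched by symbol in the RefSeq table of GRCm38.p6, and 34 of the 40 promoters ended in the sequence of the gene's own transcript, which served as a check of strand.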

Additional observations from a re-analysis of the deposited data

Results flagged for a closer look

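Across the 43 tested genes and 3 genotypes, 129 groups of 6 libraries were searched for a library far from its group, by the gap to its nearest neighbour as a share of the group's range, against Dixon's critical value for 6 values. The gaps were taken on log2 of normalised CPM, so they cannot be read from the CPM printed below, and the marks hold for that scale. The search marked 9, which is 6 of 43 genes in controls, 2 of 43 in heterozygous and 1 of 43 in homozygous mice, where 5.14%, 6.09% and 5.38% of all genes were marked. Chance marks about 1 in 20 groups. The genes of the set vary together, so the marks in 1 mouse are not separate events.

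All 6 marks in controls were the highest value of control 6: *Tgtp2* with a gap of 0.801, *Irf1* with 0.763, *Iigp1* with 0.761, *Irgm1* with 0.75, *Irgm2* with 0.692 and *Cd274* with 0.633. In *Irgm1*, control 6 had 70.9 CPM and the other controls 30.2 to 37.0. In *Tgtp2*, which shares most of its sequence with *Tgtp1*, it had 12.0 CPM against 6.02 to 6.84.

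*Irf7* was marked in heterozygous mice (gap 0.858), where heterozygous 6 had 196 CPM and the others 134 to 154. *Tgtp1* was marked for its low value in heterozygous 3 (gap 0.629), at 1.24 CPM against 2.07 to 2.54. *Gbp4* was marked in homozygous mice (gap 0.681), where homozygous 6 had 34.3 CPM and the others 8.89 to 14.0.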

How the results depend on the processing

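No interferon-stimulated gene passed an adjusted p of 0.05 in any of the 29 fits of any comparison, and the 15 fold changes given in full kept their sign in all 28 alternatives (420 values). The number of genes at an unadjusted p under 0.05 ranged from 1 to 8 for homozygous against control, from 2 to 17 for heterozygous against control and from 0 to 5 for homozygous against heterozygous mice when each library was left out. That last count, 0 as reported, was 1 with DESeq2, 1 with library size only, 2 with the 12 libraries compared and 1 without the 4 libraries high in B cell genes. Over all 12645 genes, 618, 493, 646 and 464 were higher in these fits. The cause of the change in that count was not tested. With sex as a covariate, 10 of the 43 genes were lower in heterozygous mice at an unadjusted p under 0.05, as were 280 of all 12645 genes. Over all 12645 genes, the number with an adjusted p under 0.05 was 52 for homozygous against control (136 with DESeq2, 31 without the 4 libraries), 37 for heterozygous against control (82 with DESeq2, 23 with 12 libraries, 22 with the replicate block, 15 without the 4 libraries) and 1 for homozygous against heterozygous mice (9 with DESeq2, and 0 at the lowest). Replicate numbers are shared by the genotypes, and the labels do not say what they mean. Of same-numbered pairs, 9 of 18 had a correlation over 0.1, from −0.61 to 0.64, and 2 of 18 libraries matched their own number best. The median was 0.05 for the same number and −0.03 for other numbers. These correlations also carry the tissue makeup of each library, so they cannot decide whether mice of the same number share a litter or a day of processing. With the replicate block, 0 interferon-stimulated genes passed the adjusted threshold. At an unadjusted p under 0.05, 13 of them were lower in heterozygous and 4 in homozygous mice, as were 298 and 415 of all 12645 genes. The medians of the set were −0.27 and −0.12. The lowest count of any of the 45 genes in a library was 59, which limits the precision of the weakest of them.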
